A study of Mus musculus with 4 samples.

Results

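The genes described here are 10 surface proteins of myeloid cells or their partner, measured in mouse blood. They are the C-type lectin receptors Clec4d, Clec4e, Clec5a, Clec7a and Clec12a, the receptors Trem1 and Trem3, the signal regulatory proteins Sirpa and Sirpb1a, and Cd47, the ligand of Sirpa. They were chosen by gene symbol, and all 10 were found with values among 17823 genes with values, of 23136 listed. The blood came from C57BL/6 mice, called adult in the sample labels and 12 months old in the study's methods. The 2 Nar libraries came from mice given naringenin (Nar), a flavonoid, by tail vein at 20 mg/kg for 30 days. The 2 control (Ctrl) libraries came from mice given phosphate-buffered saline over the same time. The libraries are numbered 1 and 3 in each group. Values are FPKM, the sequenced fragments of a gene scaled by its length and by the total of its own library. They therefore show shares of the RNA in blood, and in whole blood fewer cells of a type and less RNA per cell cannot be told apart.

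Myeloid cells read their surroundings through paired activating and inhibitory receptors. Activating members such as Trem1, Clec5a and Sirpb1a have no signalling motif of their own and pass the signal through the adaptor Tyrobp (DAP12), while Clec4e and Clec4d use the adaptor Fcer1g. Clec7a (dectin-1), which binds fungal beta-glucan, carries its own activating motif and signals through the kinase Syk and the adaptor Card9. Clec12a and Sirpa carry inhibitory motifs that recruit the phosphatases Ptpn6 and Ptpn11. Cd47 is present on most cells, red cells and platelets included, and by engaging Sirpa it restrains phagocytosis. In blood these receptors are known mainly from neutrophils and monocytes.

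Some of the members lie near another member (positions from the RefSeq annotation of GRCm38.p6, the build named in the submitters' processing notes). On chromosome 6, Clec4d (start 123262107, end 123275268) and Clec4e (start 123281789, end 123289871) are 6520 bases apart, on opposite strands, with 0 other protein-coding genes between them. Clec12a (start 129349783, end 129365303) and Clec7a (start 129461591, end 129472785) are farther along chromosome 6, and Clec12b, Clec1b, Clec9a and Clec1a lie between them. GENCODE lists Clec7a as a polymorphic pseudogene, while RefSeq lists it as protein-coding. On chromosome 17, Trem1 (start 48232713, end 48246927) and Trem3 (start 48247677, end 48258848) are 749 bases apart on the same strand. The others stand alone among the members, Clec5a on chromosome 6, Sirpa on chromosome 2, Sirpb1a on chromosome 3 and Cd47 on chromosome 16.

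Sequence upstream of the transcription start was available from RefSeq for 8 of the 10 genes, all but Sirpa and Trem3. Windows of 250 bases before the start were searched on both strands for GAGGAA, the core recognised by the myeloid factor PU.1, for TTGCNNAA of the C/EBP family and for TGANTCA of the AP-1 family. GAGGAA was found in 6 of the 8 genes (Clec4d, Clec4e, Clec5a, Clec7a, Clec12a and Trem1) and in 23.3% of 32851 mouse windows of that length. TTGCNNAA was found in Clec4e and Clec12a, against 9.56% of all windows, and TGANTCA in Clec12a, against 6.75%. In Cd47 and Sirpb1a none of the 3 was found in these windows. The windows of 4 genes whose RNA fell with Nar are shown 5′ to 3′ along the gene, cut where an annotated exon begins, with matches to any of the 3 motifs in capitals (TTCCTC is GAGGAA on the other strand). They are chr6:123261857-123262106 (+ strand), chr6:123289872-123290121 (- strand), chr6:129472786-129473035 (- strand) and chr17:48232489-48232712 (+ strand, 224 bases). A match is a description of the letters and not a measured binding site.
Clec4d: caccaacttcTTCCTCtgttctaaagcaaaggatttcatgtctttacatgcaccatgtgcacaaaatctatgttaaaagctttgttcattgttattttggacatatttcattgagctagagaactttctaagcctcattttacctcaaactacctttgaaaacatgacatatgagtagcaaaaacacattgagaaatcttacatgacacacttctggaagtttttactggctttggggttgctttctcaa
Clec4e: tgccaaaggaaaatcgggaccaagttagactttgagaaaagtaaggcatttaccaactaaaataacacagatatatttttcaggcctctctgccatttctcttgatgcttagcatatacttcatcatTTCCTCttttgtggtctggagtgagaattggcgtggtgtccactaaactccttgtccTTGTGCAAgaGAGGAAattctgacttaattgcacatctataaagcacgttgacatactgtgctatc
Clec7a: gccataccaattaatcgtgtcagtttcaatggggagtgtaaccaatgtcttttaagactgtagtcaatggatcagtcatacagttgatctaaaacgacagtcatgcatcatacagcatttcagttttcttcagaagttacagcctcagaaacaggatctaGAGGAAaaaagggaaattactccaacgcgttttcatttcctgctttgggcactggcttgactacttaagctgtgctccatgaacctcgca
Trem1: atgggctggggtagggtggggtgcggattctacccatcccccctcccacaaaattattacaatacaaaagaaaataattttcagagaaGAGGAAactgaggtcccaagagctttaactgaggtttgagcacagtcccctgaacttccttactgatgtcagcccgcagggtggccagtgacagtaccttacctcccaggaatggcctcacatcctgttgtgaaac

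Before the genes themselves, the libraries differed as wholes. Haemoglobin genes made up 92.6% to 96.4% of the summed FPKM, and both Nar libraries were above both control libraries. The median FPKM of the 5339 genes with a mean of at least 0.5 FPKM was 1.85 and 1.97 in the controls and 0.89 and 0.74 with Nar. Differences were tested over these 5339 genes on log2(FPKM + 0.1) with limma. On this scale, which understates the change of low genes, the median log2 fold change was -1.07. When the libraries were scaled by median-of-ratios size factors, which bring the typical gene to 1 level, it was -0.061. A gene was called when its Benjamini-Hochberg adjusted p-value from limma was under 0.05 and its fold change above 2. By this rule 39.3% of the tested genes were called lower with Nar and 0.15% higher, 39.4% in either direction.

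**Figure D1:**
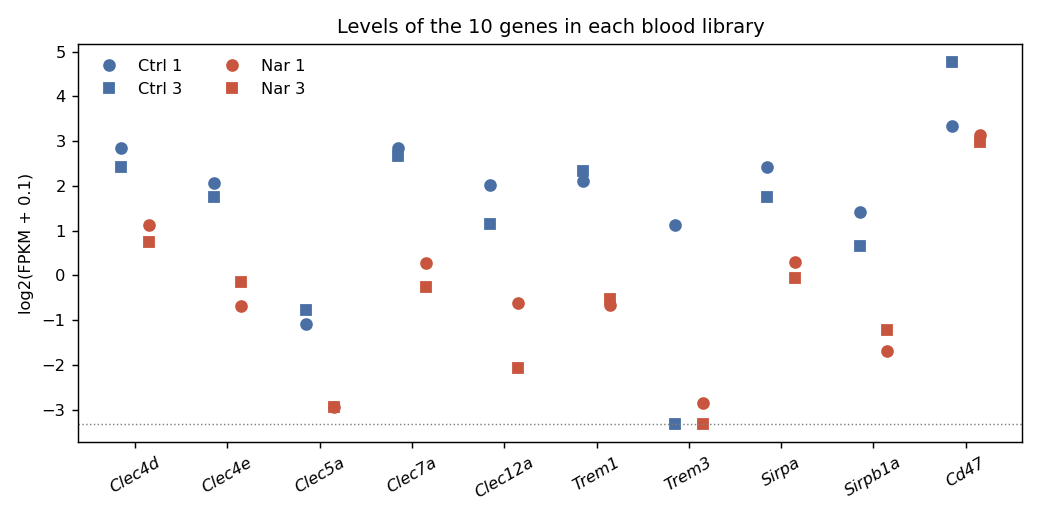
FPKM of each gene on a log2(FPKM + 0.1) axis in the 2 control libraries (blue) and the 2 Nar libraries (red), with circles for number 1 and squares for number 3 and a dotted line at 0 FPKM. Both red points lie below both blue points for 9 of the 10 genes, as they do for 78.3% of all tested genes. For Trem3 only Ctrl 1 lies well above the line. For Cd47 the groups overlap after median-of-ratios scaling.

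Of the 10 genes, 7 were called lower with Nar, namely Clec4d, Clec4e, Clec7a, Clec12a, Trem1, Sirpa and Sirpb1a. Over all tested genes 39.3% were called lower, and after median-of-ratios scaling 0 of the 10 genes were. Clec5a, at a mean of 0.23 FPKM, was too low to be tested, and Trem3 and Cd47 were not called. On the log2(FPKM + 0.1) scale the values of the 7 ran from -1.70 for Clec4d to -2.93 for Clec12a, and their order changed with the settings, Clec12a having -2.21 without Nar 3.

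Among the activating lectins, Clec7a (NCBI Gene 56644) was measured at 7.07 FPKM (Ctrl 1) and 6.24 (Ctrl 3) without naringenin and at 1.11 (Nar 1) and 0.74 (Nar 3) with it. Both controls were several times above both Nar libraries, and the groups did not overlap. Its log2 fold change was -2.74 (standard error 0.405, limma adjusted p = 0.00489). Clec4e (NCBI Gene 56619), also called Mincle, which binds mycobacterial glycolipid, had 4.1 and 3.27 FPKM in controls and 0.52 and 0.8 with Nar. The groups did not overlap, and the gene fell by 2.33 on the log2 scale (standard error 0.378, limma adjusted p = 0.00613). Clec4d (NCBI Gene 17474), its neighbour and partner at the cell surface, had 7.09 and 5.29 FPKM in controls and 2.1 and 1.58 with Nar. In the Nar libraries Clec4d had the highest level of the 5 lectins, while in Ctrl 3 Clec7a was above it. Its log2 fold change was -1.70 (standard error 0.426, limma adjusted p = 0.0223), the smallest of the 7 called. Clec5a (NCBI Gene 23845), which signals with Tyrobp, was low throughout, with 0.37 and 0.49 FPKM in the control blood against 0.03 in both Nar libraries. The groups did not overlap, but values this close to the rounding step of the deposited data have little precision. Tested without the filter on low values, it had an adjusted p of 0.113 in limma, and in that test 0 of 16382 genes were called, 4978 having an unadjusted p under 0.05.

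The inhibitory lectin Clec12a (NCBI Gene 232413), which binds uric acid crystals, was measured at 3.94 FPKM (Ctrl 1) and 2.13 (Ctrl 3), falling to 0.55 (Nar 1) and 0.14 (Nar 3). The replicates were less alike than those of Clec7a, yet the groups did not overlap. Its log2 fold change was -2.93 (standard error 0.516, limma adjusted p = 0.00802). Trem1 (NCBI Gene 58217), an amplifier of neutrophil and monocyte activation, had 4.24 and 4.93 FPKM in controls and 0.53 and 0.59 with Nar. The groups were well apart, and the log2 fold change of -2.83 had the smallest standard error of the 7 called genes (0.357, limma adjusted p = 0.00427). Trem3 (NCBI Gene 58218), the gene next to Trem1, did not share this pattern. Only Ctrl 1 had a sizeable value, 2.08 FPKM, while Nar 1 had 0.04 and Ctrl 3 and Nar 3 were listed at 0, so the groups overlapped. It passed the filter through Ctrl 1 alone, its log2 fold change was -1.98 (limma adjusted p = 0.212), and without Ctrl 1 the value was 0.24.

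Sirpa (NCBI Gene 19261), the inhibitory receptor for Cd47, reached 5.23 FPKM (Ctrl 1) and 3.27 (Ctrl 3) without naringenin and 1.14 (Nar 1) and 0.86 (Nar 3) with it. The groups did not overlap, and Sirpa fell by 1.96 on the log2 scale (standard error 0.409, limma adjusted p = 0.0141). Sirpb1a (NCBI Gene 320832), an activating relative, had 2.57 and 1.49 FPKM in controls and 0.21 and 0.33 with Nar. Its log2 fold change was -2.50 (standard error 0.401, limma adjusted p = 0.00582). Sirpb1a is near-identical to other Sirpb1 genes, and Sirpa is related to them, so alignment could divide reads between them. Sirpb1b, the copy with values, had 5.64 and 4.12 FPKM in controls and 0.81 and 0.69 with Nar, a log2 fold change of -2.54 (limma adjusted p = 0.00514).

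Cd47 (NCBI Gene 16423) had the highest level of the 10 genes in each library, with 10.1 FPKM (Ctrl 1) and 27.1 (Ctrl 3) against 8.76 (Nar 1) and 7.85 (Nar 3). Nar libraries were both below both controls, but Ctrl 1 was much nearer to the Nar libraries than to Ctrl 3. Its log2 fold change was -0.99, with a limma 95% interval from -2.30 to 0.32 and an adjusted p of 0.167. Without Ctrl 3 the value was -0.28, without Ctrl 1 it was -1.70, and after median-of-ratios scaling it was 0.11. The interval is wide enough to include both no difference and a fall as large as that of Sirpa.

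**Figure D2:**
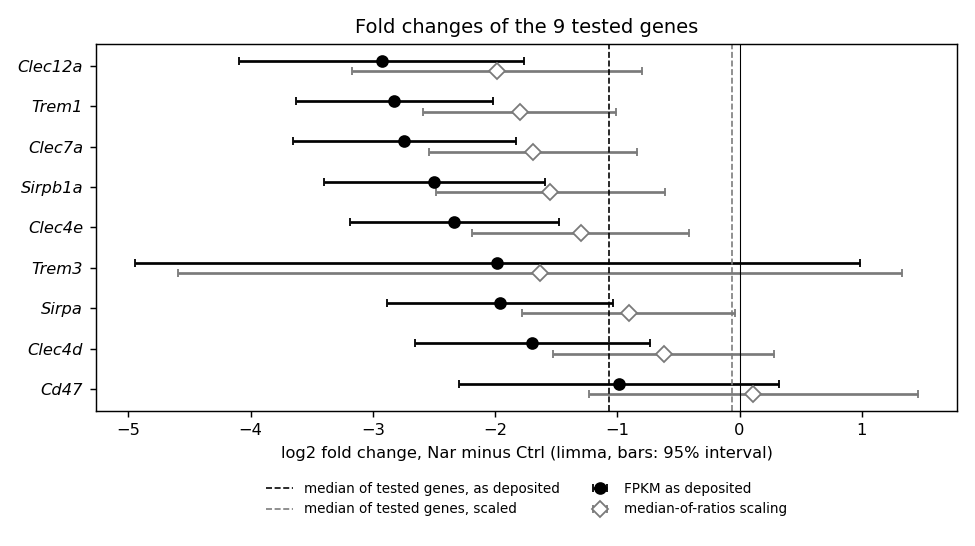
Log2 fold change, Nar minus Ctrl, of the 9 tested genes with limma 95% intervals, from the deposited FPKM (filled circles) and after median-of-ratios scaling (open diamonds). Dashed lines mark the medians of all 5339 tested genes, -1.07 and -0.061. Of the 9 genes, 8 lie left of 0 on both scales and Cd47 turns from -0.99 to 0.11.

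Read against the background, 7 of the 9 tested genes were called lower, where 39.3% of all tested genes were. The median log2 fold change of the 9 was -2.33, against -1.07 over all tested genes. Trem3, Clec12a and Sirpb1a, with mean FPKM under 0.5 in the Nar group, passed the filter through their control values, so this count and median are a description. Both Nar libraries lay below both controls for 8 of the 9, against 78.3% of all tested genes, a share near the background, and above both controls for 0, against 1.27%. Fits with 1 library left out made fewer calls over all genes as well. Of the 9 genes, 0 were called without Ctrl 1 or without Ctrl 3, 4 without Nar 1 and 3 without Nar 3, in fits where 0, 0, 254 and 213 of all tested genes were called lower. Without either control, 2682 and 2133 genes still had an unadjusted p under 0.05, and the median log2 fold change of the 9 was -2.12 without Ctrl 1 and -2.72 without Ctrl 3. After median-of-ratios scaling 0 of the 9 were called, although 6 had an unadjusted p under 0.05 and 8 had negative fold changes, and 19 of all tested genes were called lower. The scaled log2 fold changes were -1.99 for Clec12a, -1.80 for Trem1, -1.69 for Clec7a, -1.55 for Sirpb1a, -1.30 for Clec4e, -0.91 for Sirpa and -0.62 for Clec4d. When the haemoglobin genes were taken out and each library brought back to 1 total, 5 of the 9 were called lower, the exceptions being Clec4d, Sirpa, Trem3 and Cd47.

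The place of a gene among the other genes of its own library does not depend on how libraries are scaled, but it does depend on which genes are in the set. Trem3, Sirpb1a and Clec12a were in the tested set through their control values, so low ranks of these 3 with Nar are partly fixed by the filter. Sirpb1a ranked at percentile 61.1 and 40.4 of the tested genes in the controls and at 3.36 and 16.6 with Nar. Clec12a ranked at 72.6 and 52.5 in controls and at 31.0 and 1.63 with Nar. Trem1 ranked at 74.0 and 72.7 in controls and at 29.3 and 41.0 with Nar. Clec4e went from 73.4 and 63.7 to 28.4 and 52.8, with its Nar libraries far apart, and Clec7a from 83.0 and 76.5 to 57.1 and 50.0. Clec4d moved little in rank, from 83.1 and 74.0 to 71.8 and 70.6, and Sirpa from 78.3 and 63.7 to 58.0 and 55.3. For all 7 called genes both controls ranked above both Nar libraries. The share of all tested genes with this order of ranks was not computed. Cd47 held between 86.8 and 90.9 in the 4 libraries, and its groups overlapped in rank.

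**Figure D3:**
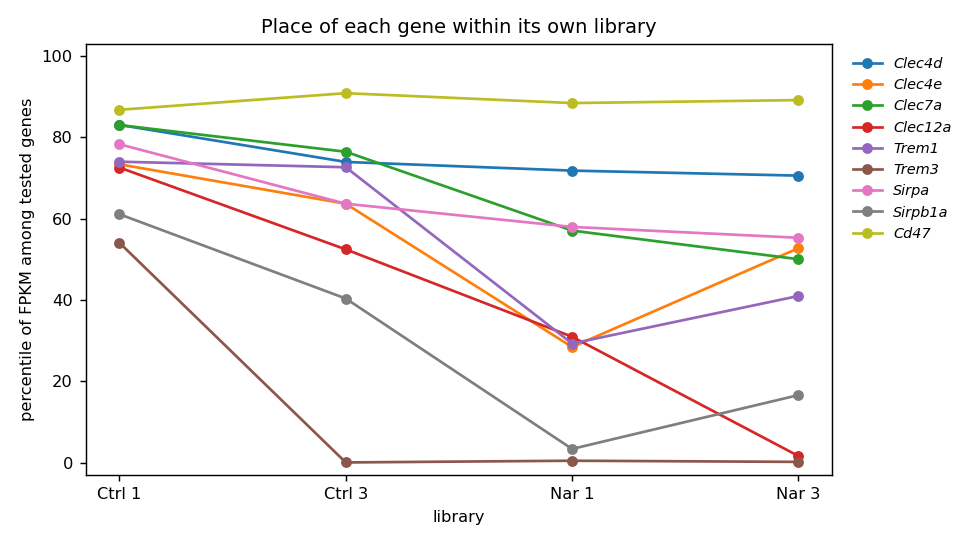
Percentile of each tested gene's FPKM among the 5339 tested genes of the same library, with lines joining the points of 1 gene across libraries that have no order. Sirpb1a, Clec12a and Trem1 drop furthest on average from Ctrl to Nar, Clec4d stays between 70.6 and 83.1 and Cd47 between 86.8 and 90.9. Trem3 stands above the bottom in Ctrl 1 only.

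Ratios between a receptor and its ligand, neighbour or adaptor were formed within each library on log2(FPKM + 0.1), 8 ratios in all. With 2 libraries against 2, an exact two-sided permutation test cannot give a p under 0.33, and the p-values here were 0.33 to 1, so the ratios are a description. The ratio of Sirpa to its ligand Cd47 stood at 0.524 (Ctrl 1) and 0.124 (Ctrl 3) against 0.14 (Nar 1) and 0.121 (Nar 3). Ctrl 1 stood apart, the difference of the log2 ratios, -0.97, was smaller than the replicate SD of 1.05, and it was 0.069 without Ctrl 1 and -2.01 without Ctrl 3. The ratio of Clec4e to Clec4d was 0.584 and 0.625 in controls and 0.282 and 0.536 with Nar, lower in both Nar libraries. Its log2 difference was -0.64 with a replicate SD of 0.466, and it was -0.17 without Nar 1 and -1.10 without Nar 3. The ratio of Sirpb1a to Sirpa was 0.501 and 0.472 in controls and 0.25 and 0.448 with Nar. With a pseudocount of 1 its log2 difference turned from -0.54 to 0.14, and it was -0.12 without Nar 1 and -0.96 without Nar 3. Trem1 stood at 0.0933 and 0.139 of the level of its adaptor Tyrobp in controls and at 0.0896 and 0.105 with Nar. The log2 difference of -0.23 was smaller than the replicate SD of 0.309, and it turned to 0.61 with a pseudocount of 1 and to 0.057 without Ctrl 3. For Clec12a against Clec7a the log2 difference was -0.18 with a replicate SD of 0.568, and it turned to 0.43 with a pseudocount of 1, to 0.16 without Ctrl 1 and to 0.27 without Nar 3. For Clec7a against Card9 it was -0.28 with a replicate SD of 0.555, turning to 0.091 with a pseudocount of 0.01 and to 0.24 without Ctrl 3. Clec5a against Tyrobp had a log2 difference of 0.58 that was -0.83 with a pseudocount of 0.01. Trem3 against Trem1 had 0.84 with a replicate SD of 2.35, and it was 3.17 without Ctrl 1 and -1.49 without Ctrl 3.

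The genes through which these receptors signal were described with a list of 30, of which 26 were tested. Of these, 11 fell and 0 rose, a share near the 39.3% of all tested genes, and the median log2 fold change was -1.37. Tyrobp (NCBI Gene 22177), the adaptor of Trem1, Clec5a and Sirpb1a, had 46.4 and 36.1 FPKM in controls and 6.93 and 6.46 with Nar. Its groups did not overlap, with a log2 fold change of -2.60 (limma adjusted p = 0.0102). Fcer1g, the adaptor of Clec4e and Clec4d, was the highest of the list at 102 and 183 FPKM in controls and 50.1 and 34.2 with Nar, a log2 fold change of -1.72 (limma adjusted p = 0.0358). Card9, which acts below Clec7a and Clec4e, had 2.16 and 0.88 FPKM in controls and 0.18 and 0.16 with Nar, a log2 fold change of -2.46 (limma adjusted p = 0.0111). It was the 1 gene of the list that passed the filter with a Nar mean under 0.5 FPKM, through its control values. The integrin chain Itgb2, the kinase Lyn and the adaptors Skap2 and Fyb had log2 fold changes of -1.28, -1.36, -1.27 and -1.46 and were not called, with limma adjusted p-values from 0.0524 to 0.0792. Syk, Ptpn6 and Ptpn11, partners of Clec7a, Clec12a and Sirpa, had log2 fold changes of -1.19, -1.38 and -1.01. None was called, with limma adjusted p-values of 0.0610, 0.0708 and 0.175, and the groups of Ptpn11 overlapped. After median-of-ratios scaling Tyrobp had -1.49, Card9 -1.58 and Fcer1g -0.61, while Itgb2, Lyn, Skap2 and Fyb were near 0, at -0.17, -0.26, -0.17 and -0.37. Syk, Ptpn6 and Ptpn11 then had -0.09, -0.30 and 0.09. On that scale 20 of the 26 were below 0 and 0 were called, 5 having an unadjusted p under 0.05. Without Ctrl 1 or without Ctrl 3 the count of 11 was 0, and without either Nar library it was 2.

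Other lectin, TREM, SIRP, Siglec, CD300 and paired immunoglobulin-like receptors, with ligands such as Thbs1 and Pglyrp1, made a list of 49, of which 44 had values and 26 were tested. Of these, 15 fell and 0 rose, beside 39.3% of all tested genes called lower, with a median log2 fold change of -1.57. Of the 26, 7 had a Nar mean under 0.5 FPKM and passed the filter through their control values, 5 of them among the 15, so this count and median are a description. The falls were large for Lilrb4a, an inhibitory receptor of myeloid cells, and for Pglyrp1, a neutrophil granule protein and ligand of Trem1. Lilrb4a had 42.8 and 28.7 FPKM in controls and 1.74 and 2.9 with Nar, a log2 fold change of -3.90 (limma adjusted p = 0.00427). Pglyrp1 had 32.0 and 18.9 FPKM in controls and 2.25 and 3.97 with Nar, a log2 fold change of -2.998 (limma adjusted p = 0.00795). After median-of-ratios scaling the values were -2.81 and -1.90. Clec1b and Treml1, the 2 highest genes of the list and known from platelets, were not called. Clec1b, the receptor for podoplanin on platelets, which lies between Clec12a and Clec7a, had 82.4 FPKM (Ctrl 1) and 256 (Ctrl 3) against 60.1 (Nar 1) and 54.3 (Nar 3), with groups that did not overlap (limma adjusted p = 0.0945). Treml1, a platelet granule receptor, had 49.9 and 121 FPKM in controls and 46.8 and 30.4 with Nar (limma adjusted p = 0.155). Treml2 and Thbs1 were not called either, with adjusted p-values of 0.167 and 0.283, and after median-of-ratios scaling Clec1b had -0.23 while Treml1, Treml2 and Thbs1 turned to 0.07, 0.09 and 0.29. In the whole list 0 of 26 were then called, with 11 at an unadjusted p under 0.05, and without Ctrl 1, Ctrl 3, Nar 1 or Nar 3 the count of 15 was 0, 0, 7 and 4.

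**Figure D4:**
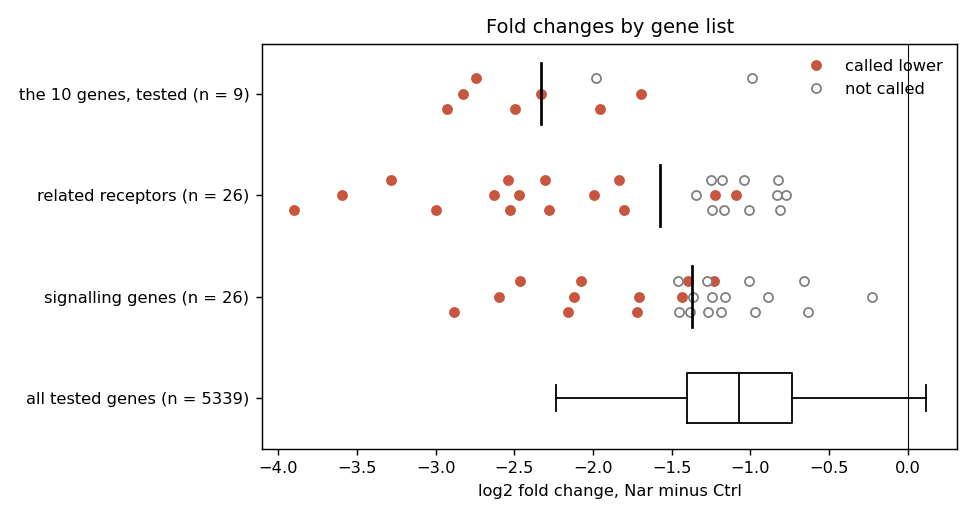
Log2 fold changes, Nar minus Ctrl, of the tested members, related receptors and signalling genes, with filled points for genes called lower and a bar at each median, above a box with the quartiles and the 5th to 95th percentiles of all tested genes. The medians are -2.33, -1.57 and -1.37 against -1.07. After median-of-ratios scaling none of these points was called and the medians were -1.55, -0.53 and -0.28, with all tested genes at -0.061.

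The other genes between Clec12a and Clec7a on chromosome 6 were close to 0. Clec12b had at most 0.54 FPKM, Clec9a at most 0.09 and Clec1a at most 0.02 in any library. Neighbouring position therefore went with unlike levels, from 256 FPKM for Clec1b in Ctrl 3 to 0 for Clec1a in 3 libraries.

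Of the markers of blood cells, those of neutrophils fell together with the receptors. All 12 neutrophil markers were called lower, with a median log2 fold change of -3.67 and a summed level of 1746 and 1442 FPKM in controls and 106 and 165 with Nar. After median-of-ratios scaling 3 of the 12 were called, all 12 having an unadjusted p under 0.05, with a median of -2.57. Without Ctrl 1, Ctrl 3, Nar 1 or Nar 3 the count of 12 was 0, 0, 6 and 10. Camp and Ltf of this list, with Nar means under 0.5 FPKM, passed the filter through their control values, as did Cx3cr1 and the called Adgre1 among the monocyte markers. S100a9, the highest neutrophil marker, had 724 and 554 FPKM in controls and 41.5 and 67.5 with Nar. Of 10 monocyte markers 8 were tested and 4 fell, with a summed level of 77.4 and 89.3 FPKM in controls and 28.1 and 9.95 with Nar, F13a1 being the highest. F13a1, known from platelets as well, was not called, and without it the sums were 58.8 and 42.7 FPKM in controls and 9.92 and 3.97 with Nar. The share of 4 in 8 is near the 39.3% of all tested genes, and the count of 4 was 0 after median-of-ratios scaling and 0, 0, 3 and 1 without Ctrl 1, Ctrl 3, Nar 1 or Nar 3. Of the B cell and T cell markers tested, 6 and 5, with Cd79a and Lck the highest, 0 were called, with medians of -0.41 and -0.47 that turned to 0.65 and 0.50 after median-of-ratios scaling. Of the 6 NK cell markers 1 fell, Gzma, the highest of them, and this count was 0 after median-of-ratios scaling, with haemoglobin removed and without any 1 library. Of the 6, 3 had Nar means under 0.5 FPKM. Itgax, the 1 dendritic cell marker tested, was not called. Of the 8 erythroid markers tested, Alas2 being the highest, 0 were called and the median was 0.26, rising to 1.33 after median-of-ratios scaling with 0 called and 7 at an unadjusted p under 0.05. With haemoglobin removed it was 0.80 with 1 called higher. Of the 8 haemoglobin genes tested, Hbb-bs being the highest, 0 were called and the median was 0.08, with 3 called higher and a median of 1.19 after median-of-ratios scaling. No defining marker of neutrophils or monocytes was listed at 0 in any library. The part of these markers in the falls of the receptors was not tested.

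For Cd47 the platelet markers had a like profile. Their summed level came to 643 FPKM (Ctrl 1) and 2062 (Ctrl 3) against 549 (Nar 1) and 419 (Nar 3), and 0 of 6 were called. Ctrl 3 exceeded Ctrl 1 by a ratio of 3.21 for this sum, 3.64 for Pf4, the highest of the list, 3.11 for Clec1b, 2.42 for Treml1 and 2.69 for Cd47. For the summed neutrophil markers the same ratio was 0.826. Genes outside the platelet list were also higher in Ctrl 3 than in Ctrl 1. Ptpn11 had 6.83 and 20.2 FPKM in Ctrl 1 and Ctrl 3, and the erythroid markers Slc4a1 and Epb42 had 40.4 and 93.2, and 3.66 and 9.14. In both Nar libraries Slc4a1 and Epb42 were above their Ctrl 1 level. The share of all tested genes that were higher in Ctrl 3 was not computed. The part of platelet RNA in the level of Cd47 was not tested.

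**Figure D5:**
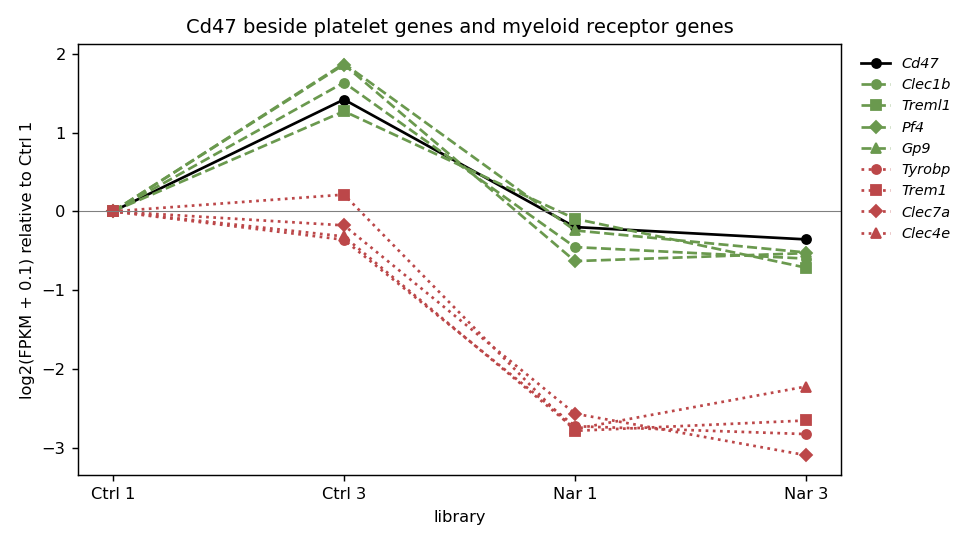
Change of log2(FPKM + 0.1) from Ctrl 1 in each library for Cd47 (black), the platelet genes Clec1b, Treml1, Pf4 and Gp9 (green, dashed) and Tyrobp, Trem1, Clec7a and Clec4e (red, dotted). The lines join points of 1 gene across libraries that have no order. Cd47 rises with the platelet genes in Ctrl 3 and lies just below its Ctrl 1 level in both Nar libraries, where the red genes lie more than 2 units lower. Of the called genes not drawn, some fell less than the red genes, such as Clec4d, and some more, such as Clec12a. After median-of-ratios scaling Cd47, Treml1 and Clec1b differ between the groups by 0.11, 0.07 and -0.23. Tyrobp, Trem1, Clec7a and Clec4e then differ by -1.49, -1.80, -1.69 and -1.30.

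Over the 4 libraries, the tested genes whose centred log2(FPKM + 0.1) profile lay nearest to the mean profile of the members were 1600014C10Rik, Lcp1 and Emilin2, at Euclidean distances of 0.05, 0.0863 and 0.107. Lcp1 encodes plastin, an actin-bundling protein of leukocytes. It had 40.3 and 26.5 FPKM in controls and 7.91 and 6.17 with Nar. With 4 libraries such a likeness rests on few points.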

How the data were processed

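The 4 blood libraries, 2 per group by the sample labels, were made from oligo(dT)-purified RNA. Values were deposited as FPKM with 2 decimals, and by the study's methods the authors had used bowtie-2 against gene sequences of a reference. The submitters' processing notes name TopHat2, Cufflinks and GRCm38, without roles, and versions are not given in the sources used here. FPKM values are not counts, so DEGseq, the test of the study, could not be repeated, and no counting error is given. Steps of whole reads were sought in low values with GENCODE lengths. The best phase coherence was 0.208 to 0.328, where 1 marks exact steps, so depth is unknown. All 4 columns were matched to libraries. No value was present for 5313 genes, which were dropped.

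The limma package (version 3.58.1, R 4.3.3, eBayes with trend) was run on log2(FPKM + 0.1) for the 5339 genes whose mean reached 0.5 FPKM, with a fold change above 2 also needed for a call, and Benjamini-Hochberg adjustment over all of them. In simulated data of the same 5339 genes, 200 genes were changed, up or down, with no shift of whole libraries. These steps recovered 82 of them with 2 false calls. The deposited data differ from this setting, with 39.3% of tested genes called lower. The counts therefore do not carry over, and how many changes were missed or falsely called here is unknown. Nothing says whether the libraries of a group came from separate mice, so p-values measure the spread between these libraries only. The members and lists were chosen with earlier results of these data known. Named are the members, the 6 highest genes of the signalling and related lists, the genes of 8 ratios, the highest marker of each list and the 3 genes of nearest profile. Clec12b, Clec9a, Clec1a, Sirpb1b, Gp9, Camp, Ltf, Adgre1 and those in the last section were added after their values were seen. So were the values of Syk, Ptpn6, Ptpn11, Slc4a1 and Epb42. Same-numbered libraries deviated from their group means with a correlation of -0.153, and nothing says that the numbers pair the mice. Sequences and positions came from RefSeq tables of GRCm38.p6. Python 3.11.15 and matplotlib 3.10.9 made the plots. Marker counts under the alternatives were added after the data were seen. Alternatives were other pseudocounts, filters, scalings and blocks, a fit without the trend, and fits leaving out each library.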

Additional observations from a re-analysis of the deposited data

How the results depend on the processing

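With median-of-ratios scaling, calls lower were 0 of the members, 0 signalling genes, 0 related receptors and 19 of all tested genes (5 higher), with medians of -1.55, -0.28, -0.53 and -0.061, and Cd47 reversed to 0.11. With haemoglobin removed, the signalling list had 2 calls and a median of -0.82, the related list 9 calls, the members a median of -1.97, and all tested genes 267 lower, 14 higher and a median of -0.56. Without the filter 0 genes were called in any list or over all 16382 genes, whose median was -0.57 (4978 with an unadjusted p under 0.05). With a mean FPKM of at least 5, Cd47 was the only member left (0 called, -0.99), 2 signalling genes and 4 related receptors were called, and of 1083 genes 116 were lower and 1 higher, with a median of -0.94. A pseudocount of 1 gave medians of -1.37 for the members and -0.62 for all genes, with 668 calls lower and 2 higher, and 0.01 gave -2.69 for the members. The pseudocount of 1 moved the log2 ratio differences to 0.14 (Sirpb1a to Sirpa), -0.16 (Clec4e to Clec4d), 0.43 (Clec12a to Clec7a), 0.61 (Trem1 to Tyrobp), 1.98 (Clec5a to Tyrobp) and -0.94 (Clec7a to Card9), and 0.01 moved Clec5a to Tyrobp to -0.83. Without the trend 4 genes were called higher.

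With the replicate block, 7 members, 1802 genes lower and 11 higher were called, and the block changed no member's call. The crossed replicate block, added after the data were seen, gave 2844 of 5339 genes lower and 17 higher, with 21 of 26 signalling genes lower.

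Leaving out 1 library at a time, calls lower ran from 0 to 4 for the members, 0 to 2 for signalling genes, 0 to 7 for related receptors and 0 to 254 for all genes, and calls higher from 0 to 4. Medians ran from -2.72 to -2.12 for the members, -1.64 to -1.10 for signalling genes, -2.46 to -1.41 for related receptors and -1.22 to -0.93 for all genes, and Trem3 ran from -4.20 without Ctrl 3 to the reversed 0.24 without Ctrl 1. In these fits the lone library of a group is assumed to vary like the other group. The causes were not tested. Rounding to 2 decimals and unknown depth limit Clec5a and Trem3.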

Other observations

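Several receptors of the related list were high in Ctrl 1 alone. Clec4a1, a lectin of the DCIR family, had 4.58 FPKM (Ctrl 1) and 0.76 (Ctrl 3) against 1.27 (Nar 1) and 0.47 (Nar 3). Clec4a3 had 3.64, 0.53, 1.06 and 0.26 FPKM in the same order, and Treml4 had 3.11, 0.94, 0.94 and 0.47. Their groups overlapped or touched, and none was called, with limma adjusted p-values of 0.185, 0.198 and 0.0862. Of the monocyte markers, Cx3cr1 and Nr4a1, which are known from patrolling monocytes, were also highest in Ctrl 1, at 1.28 and 10.6 FPKM, against at most 0.54 and 1.46 in the other libraries. Trem3 was likewise above 0.04 FPKM in Ctrl 1 only. These genes were picked out after their values were seen, and no relation between them was tested.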
